A study of Rattus norvegicus with 30 samples.

Results

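The Toll-like receptors of the rat lung were followed here together with CD14, a surface co-receptor, and the adaptor proteins that carry their signal into the cell. The members were 10 genes taken by symbol, namely Tlr2, Tlr3, Tlr4, Tlr5, Tlr7, Tlr9, Cd14, Ly96, Myd88 and Ticam1, and 8 of the 10 had a row among the 22914 genes of the read table. Ly96 and Ticam1 were not analysed here. All 8 passed the filter on low counts, as did 15934 genes in all. Their identifiers were ENSRNOG00000009822 for Tlr2 (chromosome 2), ENSRNOG00000021726 for Tlr3 (chromosome 16), ENSRNOG00000010522 for Tlr4 (chromosome 5), ENSRNOG00000022067 for Tlr5 (chromosome 13), ENSRNOG00000004249 for Tlr7 (chromosome X), ENSRNOG00000048161 for Tlr9 (chromosome 8), ENSRNOG00000017819 for Cd14 (chromosome 18) and ENSRNOG00000013634 for Myd88 (chromosome 8), all protein-coding.

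The RNA came from lung tissue of male Sprague Dawley rats, 8 weeks of age, with 3 rats in each of 10 groups and 30 libraries in total. Sham rats had the pancreas slightly turned at surgery, and Con rats received sterile saline through the biliopancreatic duct. SAP rats received 5.0% sodium taurocholate by the same route, which sets off severe acute pancreatitis (SAP) followed by injury of the lung. DEX and Emo rats received the same taurocholate and then dexamethasone, a synthetic glucocorticoid, at 10 mg/kg into a vein, or emodin, a plant anthraquinone found in rhubarb, into the stomach. The emodin dose stands as 10 mg/kg in the sample descriptions and as 40 mg/kg in the treatment protocol. Drugs were scheduled at 2 h and 12 h after surgery and lungs were taken at 6 h or 24 h, so that lungs taken at 6 h could have seen only the dose at 2 h. The rats without a drug were given the saline and carboxymethylcellulose vehicles. No strain, allele or transgene differed between the groups.

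Toll-like receptors are membrane proteins that bind molecular patterns of microbes and of damaged tissue. TLR2, TLR4 and TLR5 sit on the cell surface, where they detect lipoproteins, lipopolysaccharide and flagellin, while TLR3, TLR7 and TLR9 lie in endosomes and detect double-stranded RNA, single-stranded RNA and CpG DNA. CD14 hands lipopolysaccharide to TLR4 and its partner MD-2, the product of Ly96. All of these receptors but TLR3 signal through MyD88 towards NF-kB and inflammatory cytokines, whereas TLR3 uses TRIF, the product of Ticam1, which TLR4 also uses to raise type I interferon. In the lung, alveolar macrophages, neutrophils and the epithelium use this system to respond to inhaled or circulating stimuli.

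Between 16813949 and 34692306 reads per library lay on genes. The label of lung was checked against epithelial markers, which were high in every library, with Sftpc, a surfactant protein of alveolar type II cells, at 12733 FPKM (fragments scaled to transcript length and to the number of mapped fragments) or more. All 7 listed neutrophil markers and 4 of 4 B cell markers were detected in every library. Of 8 macrophage and monocyte markers, Marco lay between 0 and 0.86 FPKM. A few libraries stood apart on genes that touch the results. Replicate 3 of Emo-6h had Irf7, an interferon-induced transcription factor, at 2136 FPKM against 37.2 and 40.8 in the other rats of its group, and 1 library of Con-24h reached 345 FPKM. Replicate 1 of SAP-24h had the highest Cd14 and Myd88 of its group. Nothing in the labels says that the rats were processed in batches. In the study's sequencing summary, every SAP, DEX and Emo library had a lower share of uniquely mapped reads than any Sham or Con library. That difference runs along with taurocholate in each comparison of SAP with Sham or Con, and its part in those results was not tested.

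Levels are given first as FPKM, which divides by transcript length and therefore allows genes to be set side by side. Cd14 was the most abundant member, with a mean of 66.7 FPKM over 30 libraries and a range from 28.9 to 177. Myd88 followed at 33.6 FPKM with the narrowest range, from 20.7 to 55.6, a ratio of 2.69 between the highest and the lowest library. Tlr2 averaged 8.23 FPKM and spanned 1.58 to 23.0, a ratio of 14.6. The remaining receptors were lower, with means of 3.78 FPKM for Tlr4, 2.59 for Tlr3 and 2.55 for Tlr7, and only 0.654 for Tlr5 and 0.391 for Tlr9. Tlr9 rested on 5 to 96 reads per library and Tlr5 on 18 to 231, against 1719 to 11292 for Cd14.

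**Figure D1:**
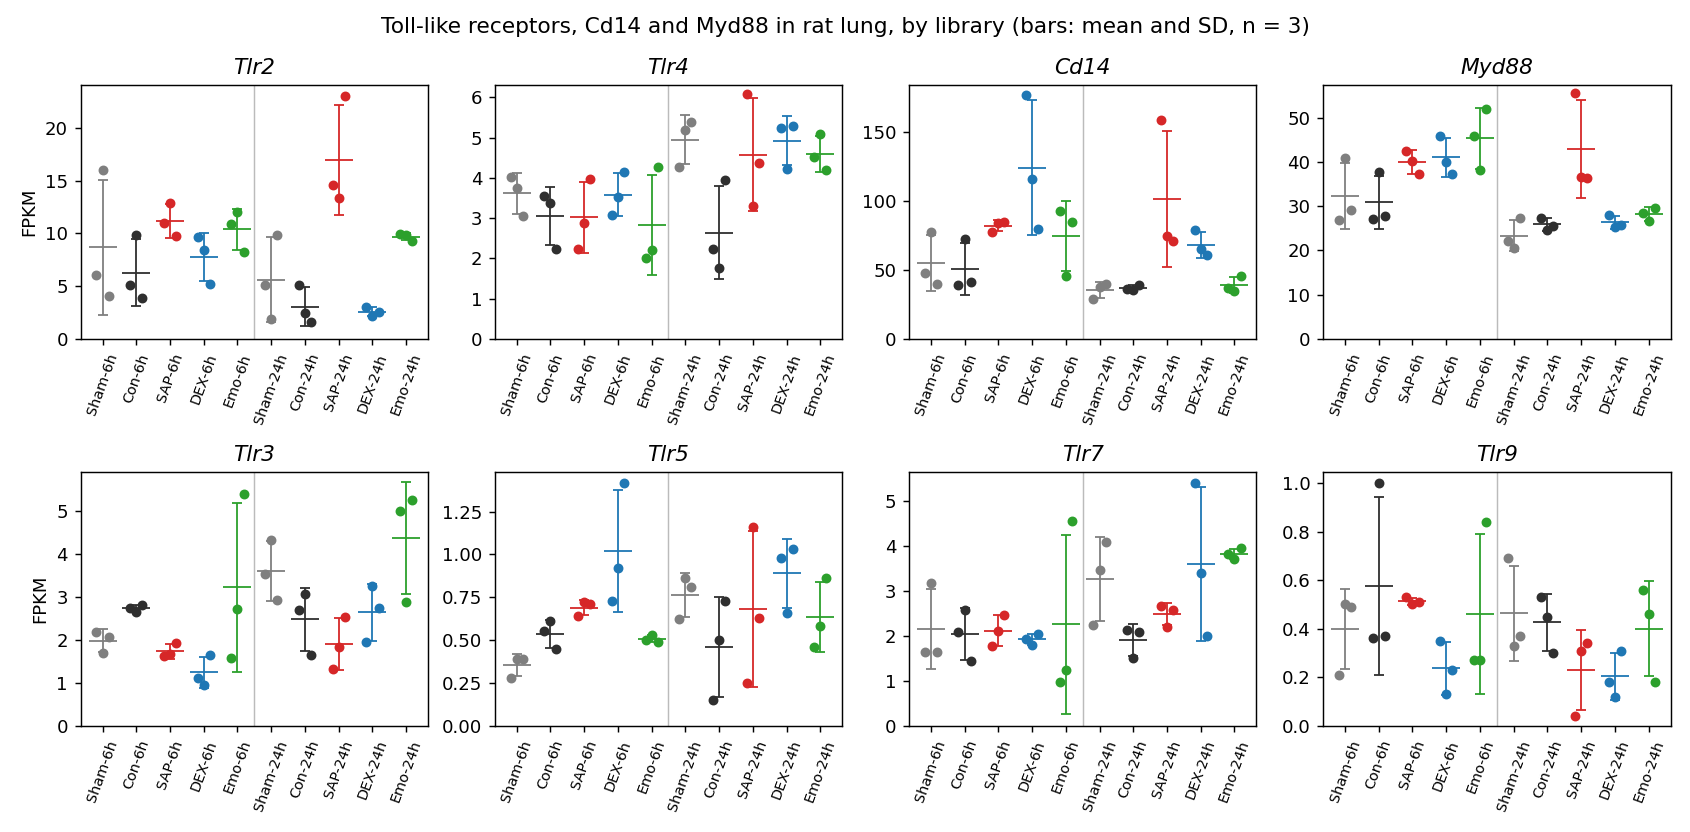
Level of each of the 8 measured members in FPKM (vertical axis, linear, each panel with its own scale from 0) in every library of the 10 groups (horizontal axis, 6 h groups left of the grey line), with points for single rats and bars for the mean and SD of 3 rats. Tlr2 reached 13.4 to 23.0 FPKM in SAP-24h and 2.20 to 2.98 FPKM in DEX-24h, Cd14 was highest in DEX-6h and in 1 rat of SAP-24h, and Tlr4 stayed between 1.75 and 6.08 FPKM throughout.

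The order of the 10 groups differed from member to member. Tlr2 was highest in SAP-24h (17.0 ± 5.24 FPKM, SD, n = 3) and lowest in DEX-24h (2.59 ± 0.390), and SAP-24h was separated from the next group, SAP-6h (11.2 ± 1.60), by more than the larger SD and without overlap of rats. That was the only pair of neighbours in the order, among 9 such pairs for each of the 8 members, in which the rats did not overlap. Cd14 was highest in DEX-6h (124 ± 49.1 FPKM) and lowest in Sham-24h (35.4 ± 5.75), and none of its 9 pairs of neighbours differed by more than the larger SD. Myd88 was highest in Emo-6h (45.3 ± 6.90 FPKM) and lowest in Sham-24h (23.4 ± 3.45), with 2 of 9 neighbouring pairs past the larger SD. Tlr3 ran the other way, from Emo-24h at the top (4.37 ± 1.30 FPKM) to DEX-6h at the bottom (1.24 ± 0.365), with 1 such pair. For Tlr4, Tlr5, Tlr7 and Tlr9 no neighbouring groups differed by more than the larger SD.

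The stretches upstream of Tlr2, Cd14 and Myd88 are shown because these 3 members were higher together in SAP-24h lungs than in Sham-24h lungs. RefSeq promoters of the rat assembly GRCr8 were matched by symbol for 8 of the 10 members, Ly96 and Ticam1 having no entry. Each line gives the 250 bases before the annotated start, 5′ to 3′ on the strand of the gene, with matches to the searched motifs in capitals. The Tlr2 stretch lies at chr2:171504558-171504807 on the minus strand, that of Cd14 at chr18:28611159-28611408 on the minus strand and that of Myd88 at chr8:127956231-127956480 on the minus strand.
Tlr2: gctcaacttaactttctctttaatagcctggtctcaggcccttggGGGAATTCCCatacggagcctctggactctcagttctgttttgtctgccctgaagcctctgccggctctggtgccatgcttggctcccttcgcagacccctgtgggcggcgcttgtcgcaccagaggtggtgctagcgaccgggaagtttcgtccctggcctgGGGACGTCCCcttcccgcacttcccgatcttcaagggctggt
Cd14: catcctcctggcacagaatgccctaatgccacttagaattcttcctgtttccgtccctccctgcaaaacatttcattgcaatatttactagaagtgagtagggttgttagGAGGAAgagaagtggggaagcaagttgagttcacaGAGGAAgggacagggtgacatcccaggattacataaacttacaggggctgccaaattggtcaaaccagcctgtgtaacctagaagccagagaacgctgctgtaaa
Myd88: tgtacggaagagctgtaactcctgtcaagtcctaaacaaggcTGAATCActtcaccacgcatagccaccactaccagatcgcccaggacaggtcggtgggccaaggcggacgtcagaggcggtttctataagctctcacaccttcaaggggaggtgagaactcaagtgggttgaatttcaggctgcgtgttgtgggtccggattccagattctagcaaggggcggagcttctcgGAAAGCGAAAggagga
Motifs were chosen after the values were known and were searched on both strands, none of the matches overlapping another. The NF-kB letters, GGGA and CC with any 4 bases between them, were found in Tlr2 alone among the 8 members, as GGGAATTCCC from 205 to 196 bases and as GGGACGTCCC from 42 to 33 bases before the start, while 16.4% of 33469 rat promoters of the same length held at least 1 match. Cd14 held the PU.1 letters GAGGAA at 140 and 105 bases before the start (23.3% of promoters). The windows of Tlr3, Tlr4, Tlr7 and Tlr9 also held the PU.1 letters, and that of Tlr9 also held the AP-1 letters. Myd88 held the AP-1 letters TGANTCA at 208 bases (6.34%) and the interferon response letters, GAAA and GAAA with any 2 bases between them, at 16 bases (3.41%). The glucocorticoid receptor letters, AGAACA and TGTTCT with any 3 bases between them, were in 0 of the 8 windows, and in 4 promoters of the whole table. A match is a description of letters and not a site shown to be bound.

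The first question was whether pancreatitis changed these genes in the lung. In SAP-24h compared with Sham-24h, Tlr2, Cd14 and Myd88 were up-regulated, while the other 5 receptors did not pass the test. A gene was called when its edgeR quasi-likelihood p, adjusted by Benjamini-Hochberg over all 15934 genes, was below 0.05 and its change was at least 2-fold. By that rule 3 of 8 members were called, all higher, where 5.00% of all genes tested were called in either direction. The median log2 fold change was -0.01 over the 8 members and -0.03 over all genes.

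Tlr2 measured 5.11, 1.84 and 9.90 FPKM in Sham-24h and 14.6, 13.4 and 23.0 FPKM in SAP-24h, so the groups did not overlap although 1 sham rat reached 9.90. The log2 fold change was 1.72 ± 0.49 (SE), or 3.29-fold, with an adjusted p of 0.0253 (edgeR). Cd14 rose from 28.9, 37.6 and 39.7 FPKM to 158, 74.5 and 71.0 FPKM, every SAP-24h rat lying above every sham rat and replicate 1 far above the others. The log2 fold change of Cd14 was 1.67 ± 0.34, or 3.18-fold (adjusted p = 0.00384). Myd88, the shared adaptor, rose from 22.2, 20.7 and 27.2 FPKM to 55.6, 36.7 and 36.3 FPKM, again without overlap and again with replicate 1 highest. The log2 fold change of Myd88, 1.02 ± 0.18 (adjusted p = 0.00199), lay just above the 2-fold line. The Tlr2 call was lost when any of 4 libraries was left out, with log2 fold changes of 1.78 without SAP-24h replicate 1, 1.48 without SAP-24h replicate 3, 1.66 without Sham-24h replicate 1 and 1.31 without Sham-24h replicate 2 (adjusted p from 0.0511 to 0.113). Myd88 stayed under an adjusted p of 0.05 but fell below 2-fold without SAP-24h replicate 1 (0.74, adjusted p = 0.0124), without Sham-24h replicate 1 (0.99) and without Sham-24h replicate 2 (0.95), whereas Cd14 was called whichever library was left out. With no other groups in the fit, which left fewer rats to estimate the spread, 0 of 8 members were called, and the adjusted p lay between 0.101 and 0.157 for these 3.

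With the saline-infused Con-24h rats as the reference, all 3 kept their direction and an adjusted p below 0.05. Tlr2 differed more from that reference (2.59 on the log2 scale, adjusted p = 0.00159), Cd14 about as much (1.61, adjusted p = 0.00247), and Myd88 by under 2-fold (0.87, adjusted p = 0.00227). Con-24h rats had 5.11, 2.46 and 1.58 FPKM of Tlr2 and 36.5, 35.3 and 38.9 FPKM of Cd14, all below the SAP-24h rats. Neutrophil markers summed to 97.4 to 952 FPKM in Con-24h, below the 4479 to 16330 of SAP-24h without overlap, and their part in the larger Tlr2 difference was not tested. Tlr4 had an adjusted p below 0.05 against this reference but not against Sham-24h, at 0.94 on the log2 scale (adjusted p = 0.0258), under 2-fold and so not called, and the Con-24h rats, at 2.23, 1.75 and 3.94 FPKM, overlapped the lowest SAP-24h rat at 3.30 FPKM.

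Neutrophil markers were looked at beside Tlr2. Of the 7 markers 1 passed the test in SAP-24h against Sham-24h, Itgam (1.15 on the log2 scale, adjusted p = 0.0450), and the median of the 7 was 1.73, with S100a8 at 1.78 (adjusted p = 0.256). The FPKM of S100a8, S100a9, Csf3r, Cxcr2, Mmp8, Mmp9 and Itgam summed to between 4479 and 16330 in SAP-24h and to between 194.6 and 9261 in Sham-24h, so that the ranges overlapped, the sum being carried mostly by S100a8 and S100a9. Within Sham-24h the rat with 9.90 FPKM of Tlr2 had the sum of 9261 and the rat with 1.84 FPKM had the sum of 194.6. In RNA from whole tissue, fewer cells of a type and less RNA per cell cannot be told apart, and the part of neutrophil number in the Tlr2 difference was not tested. Macrophage and monocyte markers summed to 24240 to 31570 FPKM in SAP-24h and to 17880 to 25800 in Sham-24h, so that the ranges overlapped, but this sum was carried almost entirely by Lyz2, at 11850 to 31247 FPKM over the 30 libraries against at most 172 FPKM for any other of the 8 markers. Of the 8, 1 was called in SAP-24h against Sham-24h, Marco, which was higher in SAP-24h but at no more than 0.86 FPKM in any library, and the median of the 8 log2 fold changes was 0.29, with Lyz2 at 0.43 (adjusted p = 0.123) and Cd68 at 0.22 (adjusted p = 0.627). The part of macrophage number in the Cd14 difference was not tested.

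The other receptors did not pass the test in this comparison. Tlr4, the lipopolysaccharide receptor, measured 6.08, 3.30 and 4.36 FPKM in SAP-24h and 4.26, 5.19 and 5.40 FPKM in Sham-24h, with a log2 fold change of 0.03 ± 0.29 (95% interval -0.57 to 0.63) that turned to -0.28 without SAP-24h replicate 1 and to -0.06 without Sham-24h replicate 1. Tlr3 was lower in every SAP-24h rat (1.33, 1.83 and 2.53 FPKM) than in any sham rat (3.53, 4.33 and 2.93 FPKM), but its log2 fold change of -0.81 ± 0.33 had an adjusted p of 0.111. With Con-24h as the reference it was -0.27 (adjusted p = 0.601), and the Con-24h rats, at 2.70, 3.07 and 1.65 FPKM, overlapped the SAP-24h rats. Tlr9 had a log2 fold change of -0.90 ± 0.59 (adjusted p = 0.322). Tlr5 and Tlr7 had log2 fold changes of -0.06 and -0.27, each smaller than its SE.

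At 6 h no member was called. In SAP-6h compared with Sham-6h, 0 of 8 members were called where 0.220% of all genes were called, 1 member had an unadjusted p under 0.05, and DESeq2 also called 0. That member was Tlr5, the flagellin receptor, at 0.64, 0.72 and 0.71 FPKM in SAP-6h against 0.28, 0.39 and 0.39 FPKM in Sham-6h, which did not overlap. The log2 fold change of Tlr5 was 1.03 ± 0.42 (adjusted p = 0.284). With Con-6h as the reference it was 0.43 (adjusted p = 0.786), the Con-6h rats having 0.55, 0.61 and 0.45 FPKM. Cd14 had 77.5, 83.8 and 84.7 FPKM in SAP-6h, but 1 Sham-6h rat reached 77.8 FPKM and its group overlapped (log2 fold change 0.63 ± 0.33, adjusted p = 0.438). The same sham rat, replicate 2, had 16.01 FPKM of Tlr2 and 40.8 FPKM of Myd88, above all 3 SAP-6h rats for Tlr2. The test of whether the SAP effect differed between 24 h and 6 h called 0 of 8 members (0.0314% of all genes, 2 members at an unadjusted p under 0.05, 0 by DESeq2). Those 2 were Cd14, with a difference of 1.04 ± 0.47 on the log2 scale (adjusted p = 0.363), and Myd88, with 0.66 ± 0.26 (adjusted p = 0.286).

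The 2 kinds of control rats were compared with each other to see what the duct infusion alone went with. Con-6h against Sham-6h called 0 of 8 members and 0% of all genes, with 0 members at an unadjusted p under 0.05 and 0 by DESeq2. Con-24h against Sham-24h called 0 of 8 where 1.00% of genes were called, with 1 member at an unadjusted p under 0.05 and 0 by DESeq2. That was Tlr4, at 2.23, 1.75 and 3.94 FPKM in Con-24h and 4.26, 5.19 and 5.40 FPKM in Sham-24h, without overlap and with a log2 fold change of -0.91 ± 0.30 (adjusted p = 0.0516). Without Con-24h replicate 3 it was called at -1.30 (adjusted p = 0.0100), and DESeq2 gave -0.89, under 2-fold, with an adjusted p of 0.0247. Of the 7 neutrophil markers 3 were called lower in Con-24h than in Sham-24h, namely S100a8, Mmp8 and Mmp9 (-3.42, -3.70 and -3.10 on the log2 scale, adjusted p = 0.0473, 0.0234 and 0.0309), and the median of the 7 was -2.91.

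**Figure D2:**
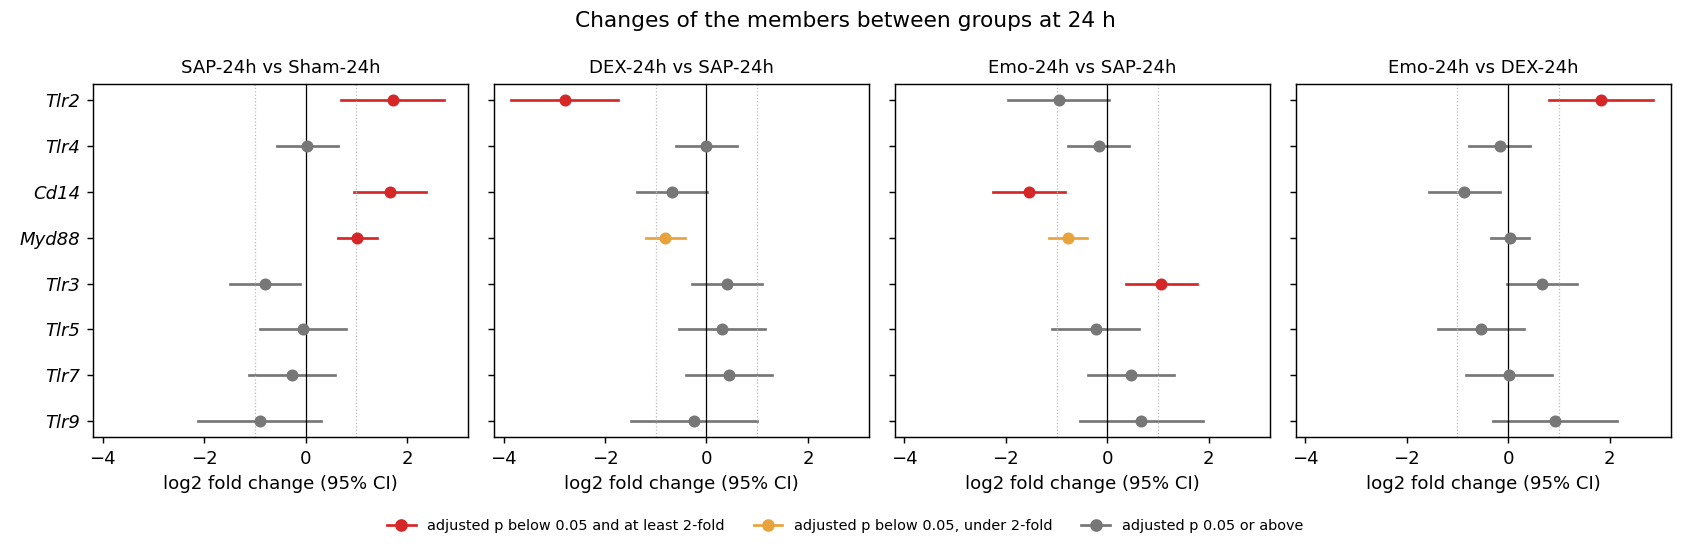
Log2 fold change of each member (horizontal axis, points with 95% confidence intervals from edgeR) in 4 comparisons at 24 h, with dotted lines at 2-fold and colours for the outcome of the test. Tlr2, Cd14 and Myd88 lie to the right in SAP-24h against Sham-24h, Tlr2 lies at -2.79 in DEX-24h against SAP-24h, and Cd14 lies at -1.54 in Emo-24h against SAP-24h, while every interval of Tlr4 spans 0.

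The next question was what each drug went with in rats with pancreatitis. Both drug comparisons use the same SAP libraries as their reference, and their values are therefore set side by side. With dexamethasone at 24 h, Tlr2 was down-regulated and Cd14 did not pass the test. With emodin at 24 h, Cd14 was down-regulated and Tlr3 up-regulated, and Tlr2 did not pass the test. Myd88 was lower with either drug by less than 2-fold.

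In DEX-24h compared with SAP-24h, 1 of 8 members was called where 3.73% of all genes were, and 2 of 8 had an adjusted p below 0.05 without the fold minimum, where 7.71% of genes did. Tlr2 measured 2.98, 2.20 and 2.59 FPKM in DEX-24h, and the lowest SAP-24h rat had 13.4 FPKM. Its log2 fold change was -2.79 ± 0.51, or 6.94-fold lower (adjusted p = 0.00206). This call held in all 11 alternatives, with log2 fold changes between -2.95 and -2.55 and adjusted p values up to 0.0153. The DEX-24h rats thereby overlapped the rats without pancreatitis, which had 1.84 to 9.90 FPKM of Tlr2 in Sham-24h and 1.58 to 5.11 FPKM in Con-24h.

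Myd88 measured 28.0, 25.2 and 25.8 FPKM in DEX-24h, all below the 36.3 to 55.6 FPKM of SAP-24h, with a log2 fold change of -0.81 ± 0.18 (adjusted p = 0.00846). Without SAP-24h replicate 1 the difference was -0.51 with an adjusted p of 0.0737, and with only the compared groups in the fit it was -0.81 with an adjusted p of 0.131. Cd14 stood at 79.1, 64.9 and 61.2 FPKM in DEX-24h, overlapping the 71.0 to 158 FPKM of SAP-24h (log2 fold change -0.68 ± 0.33, adjusted p = 0.223), and all 3 rats lay above the highest Sham-24h rat at 39.7 FPKM. Over 11 alternatives the log2 fold change of Cd14 ranged from -0.91 to -0.13, with adjusted p values from 0.128 to 0.881. Tlr4 had a log2 fold change of 0.00 (95% interval -0.60 to 0.60), 0.32 without SAP-24h replicate 1 and 0.08 without DEX-24h replicate 2, and Tlr3, Tlr5, Tlr7 and Tlr9 did not pass the test, with adjusted p values from 0.500 to 0.833.

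Neutrophil markers summed to 1016 to 2981 FPKM in DEX-24h against 4479 to 16330 in SAP-24h, without overlap, although only 1 of the 7 passed the test, again Itgam (-1.53, adjusted p = 0.0150), the median of the 7 being -2.37. Macrophage and monocyte markers summed to 17800 to 21490 FPKM in DEX-24h against 24240 to 31570 in SAP-24h, also without overlap, with 1 of 8 called, Fcgr1a (-1.43, adjusted p = 0.0235), and a median of -0.47. Of the 4 B cell markers 3 were called lower in DEX-24h than in SAP-24h, with a median of -1.755, where 3.73% of all genes were called. B cell markers summed to 5.42 to 11.82 FPKM in DEX-24h against 20.01 to 35.0 in SAP-24h, without overlap. The part of any of these cell types in the Tlr2 and Myd88 differences was not tested. Between the times under dexamethasone the neutrophil sums overlapped and 0 of the 7 markers passed. The median of their log2 fold changes was -0.21 in DEX-24h against DEX-6h, from -0.85 for Cxcr2 to 0.11 for Mmp9 (adjusted p = 0.423 and 0.935). The neutrophil sums ran from 1051 to 3003 FPKM in DEX-6h, where Tlr2 measured 9.67, 8.39 and 5.23 FPKM, all above the 2.20 to 2.98 FPKM of DEX-24h. All 4 B cell markers were called lower in DEX-24h than in DEX-6h. The part of either cell type in that Tlr2 difference was not tested.

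**Figure D3:**
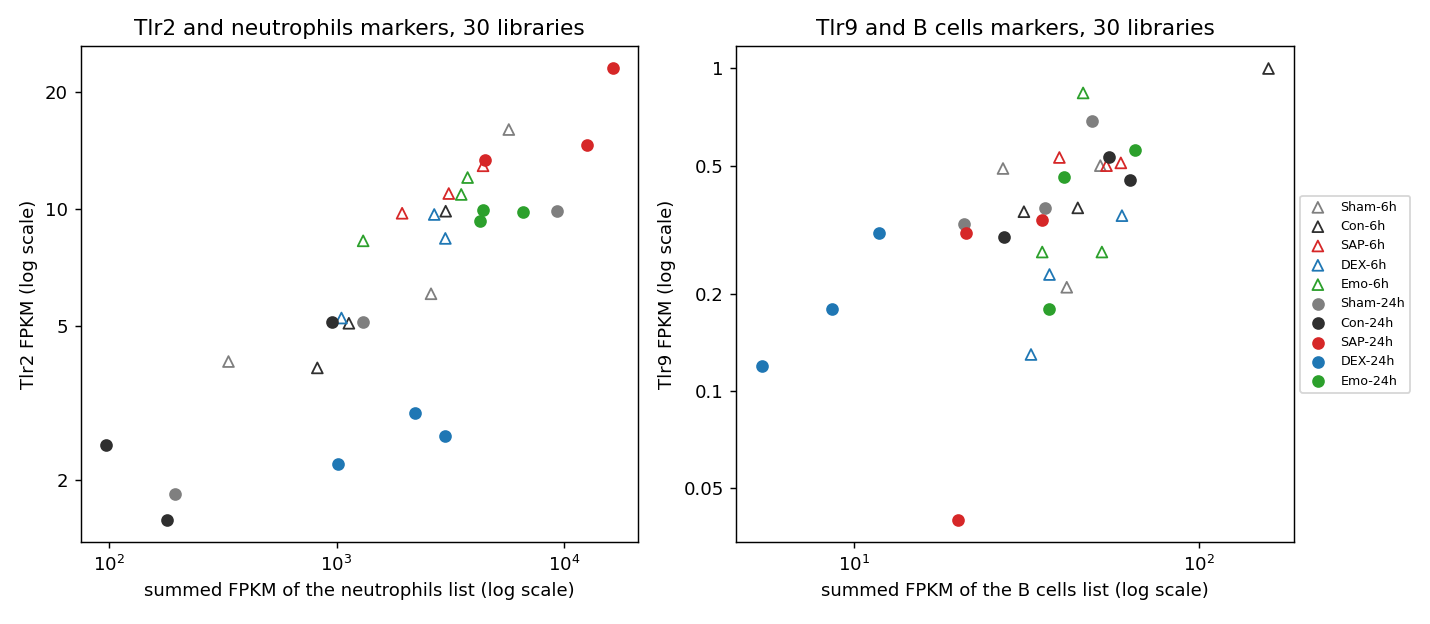
Left, Tlr2 FPKM against the summed FPKM of 7 neutrophil markers, and right, Tlr9 FPKM against the summed FPKM of 4 B cell markers, both axes on a log scale, 1 point per library, triangles for 6 h and filled circles for 24 h. Tlr2 followed the neutrophil sum over the 30 libraries (r = 0.833 on the log2(FPKM + 1) scale), with the 3 DEX-24h libraries at 2.20 to 2.98 FPKM below the other libraries of similar neutrophil sum.

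In DEX-6h compared with SAP-6h, 0 of 8 members were called where 0.515% of genes were, with 0 at an unadjusted p under 0.05 and 0 by DESeq2. Cd14 had its highest group mean in DEX-6h, with rats at 177, 116 and 79.6 FPKM, although 1 rat of SAP-24h reached 158 FPKM. The lowest DEX-6h rat overlapped the 77.5 to 84.7 FPKM of SAP-6h (log2 fold change 0.61 ± 0.33, adjusted p = 0.509). Tlr2 at 9.67, 8.39 and 5.23 FPKM lay below all SAP-6h rats, with the highest at 9.67 against a lowest SAP-6h value of 9.74, and did not pass the test (-0.52 ± 0.48, adjusted p = 0.786). The test of whether the dexamethasone effect differed between times called 0 of 8 members (0.138% of genes, 3 members at an unadjusted p under 0.05). These were Tlr2 with a difference of -2.27 ± 0.69 (adjusted p = 0.148), Myd88 with -0.84 ± 0.26 (adjusted p = 0.149) and Cd14 with -1.29 ± 0.47 (adjusted p = 0.225). DESeq2 called 1 member, Tlr2.

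In Emo-24h compared with SAP-24h, 2 of 8 members were called where 3.19% of all genes were, and 3 of 8 had an adjusted p below 0.05 without the fold minimum, where 8.59% of genes did. Cd14 measured 37.0, 35.0 and 45.7 FPKM in Emo-24h, all below the 71.0 FPKM of the lowest SAP-24h rat. Its log2 fold change was -1.54 ± 0.34, or 2.92-fold lower (adjusted p = 0.00949). These levels overlapped those of Sham-24h, at 28.9 to 39.7 FPKM. The macrophage and monocyte sum was also lower without overlap, at 17310 to 20620 FPKM in Emo-24h against 24240 to 31570 in SAP-24h. Of its 8 markers 1 had an adjusted p below 0.05, Lyz2 (-0.66, adjusted p = 0.0303), which carries the sum, and the median of the 8 log2 fold changes was 0.02. The part of macrophage number in the Cd14 difference was not tested. Myd88 measured 28.5, 26.6 and 29.5 FPKM, again below every SAP-24h rat, with a log2 fold change of -0.77 ± 0.18 (adjusted p = 0.0141). Tlr2 was at 9.95, 9.81 and 9.29 FPKM, below every SAP-24h rat, but the log2 fold change of -0.96 ± 0.48 had an adjusted p of 0.206. The neutrophil sums of Emo-24h, at 4274 to 6609 FPKM, overlapped the 4479 to 16330 of SAP-24h. Of the 7 neutrophil markers 0 passed, with a median of -0.87, and their part in the Myd88 and Tlr2 differences was not tested. Tlr3, the receptor for double-stranded RNA, was at 4.99, 2.88 and 5.25 FPKM in Emo-24h and at 1.33, 1.83 and 2.53 FPKM in SAP-24h, without overlap. Its log2 fold change was 1.07 ± 0.34, with an adjusted p of 0.0487 that lay close to the threshold. With RLE size factors it was 1.04 (adjusted p = 0.0514) and with no filter on low counts 1.04 (adjusted p = 0.0640), so that the call ended under both. Tlr7 was also higher in every Emo-24h rat (3.70 to 3.94 FPKM) than in any SAP-24h rat (2.20 to 2.67 FPKM). It did not pass the test (0.46 ± 0.41, adjusted p = 0.497). Tlr4, Tlr5 and Tlr9 overlapped and did not pass, with adjusted p values from 0.489 to 0.757.

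Single libraries decided several of these values, and with only the compared groups in the fit 0 of 8 members were called. Without SAP-24h replicate 1 the log2 fold change of Cd14 was -1.01 (adjusted p = 0.0691) and that of Myd88 -0.49 (adjusted p = 0.0860), and without Emo-24h replicate 2 they were -1.48 (adjusted p = 0.0544) and -0.75 (adjusted p = 0.0653), and Myd88 was at -0.76 (adjusted p = 0.0547) without Emo-24h replicate 1. The Tlr3 call was lost without any 1 of the Emo-24h replicates 1, 2 or 3 or the SAP-24h replicates 1 or 2, at log2 fold changes from 0.85 to 1.28 with adjusted p values from 0.0593 to 0.167. Irf7, which interferon is known to raise, measured 63.1, 199 and 238 FPKM from the lowest to the highest rat of Emo-24h, against 8.09 to 57.3 FPKM in SAP-24h, and its part in the Tlr3 difference was not tested.

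At 6 h emodin went with no call. In Emo-6h compared with SAP-6h, 0 of 8 members were called where 0.0251% of genes were, with 1 member at an unadjusted p under 0.05 and 0 by DESeq2. That was Tlr3, at 1.57, 2.71 and 5.40 FPKM in Emo-6h and 1.61, 1.66 and 1.93 FPKM in SAP-6h, with a log2 fold change of 0.89 ± 0.34 (adjusted p = 0.269). Over 11 alternatives this fold change ranged from 0.29 to 1.22, with adjusted p values from 0.168 to 0.752. The 5.40 FPKM belonged to replicate 3, the library with 2136 FPKM of Irf7, which also had the highest Tlr7 (4.55 FPKM against 0.98 and 1.23) and the highest Tlr9 (0.84 FPKM against 0.27 and 0.27) of its group. The test of whether the emodin effect differed between 24 h and 6 h called 0 of 8 members with the fold minimum (1.68% of genes, 2 members at an unadjusted p under 0.05). Without that minimum it passed for 1 of 8, Myd88, where 3.57% of genes passed. The Myd88 difference was -0.94 ± 0.26 (adjusted p = 0.0440), with 45.9, 38.1 and 51.9 FPKM in Emo-6h against 42.6, 40.3 and 37.2 FPKM in SAP-6h, and a lower level in every Emo-24h rat than in any SAP-24h rat. DESeq2 called 1 member there, Cd14, for which edgeR gave -1.40 ± 0.47 (adjusted p = 0.0815).

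The 2 drugs were also compared with each other. In Emo-24h compared with DEX-24h, 1 of 8 members was called where 5.06% of genes were. This was Tlr2, at 9.95, 9.81 and 9.29 FPKM with emodin against 2.98, 2.20 and 2.59 FPKM with dexamethasone, a log2 fold change of 1.84 ± 0.50 or 3.57-fold (adjusted p = 0.0223). Its adjusted p rose to between 0.0532 and 0.0873 when DEX-24h replicate 1, 2 or 3 or Emo-24h replicate 1 or 2 was left out, at log2 fold changes from 1.74 to 1.91. Neutrophil markers summed to 4274 to 6609 FPKM in Emo-24h and to 1016 to 2981 in DEX-24h, with Itgam at 1.09 on the log2 scale (adjusted p = 0.0699), and their part in the difference was not tested. All 4 B cell markers were called higher in Emo-24h than in DEX-24h, and their part was not tested either. Cd14 was lower in every Emo-24h rat (35.0 to 45.7 FPKM) than in any DEX-24h rat (61.2 to 79.1 FPKM), but did not pass the test (-0.86 ± 0.34, adjusted p = 0.118), although it had an adjusted p of 0.0213 with only the compared groups in the fit. Myd88 had a difference of 0.04 on the log2 scale (95% interval -0.34 to 0.41).

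In Emo-6h compared with DEX-6h, 1 of 8 members was called where 1.41% of genes were. Tlr3 measured 1.57, 2.71 and 5.40 FPKM with emodin and 1.12, 0.95 and 1.65 FPKM with dexamethasone, so that the groups overlapped, with a log2 fold change of 1.39 ± 0.34 (adjusted p = 0.0272). Without Emo-6h replicate 3 it was 0.77 (adjusted p = 0.251), and without DEX-6h replicate 1, 2 or 3 it lay between 1.22 and 1.61 with adjusted p values from 0.0503 to 0.137. Tlr5 had 0.50, 0.53 and 0.49 FPKM with emodin against 0.73, 0.92 and 1.42 FPKM with dexamethasone, without overlap but with an adjusted p of 0.202.

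The groups were last compared between the times. In Sham-24h against Sham-6h, 0 of 8 members were called where 0.257% of genes were, with 3 members at an unadjusted p under 0.05 and 0 by DESeq2. In Con-24h against Con-6h, 0 of 8 were called (0.00628% of genes, 0 members at an unadjusted p under 0.05, 0 by DESeq2). In SAP-24h against SAP-6h, 0 of 8 were called (2.42% of genes, 1 member at an unadjusted p under 0.05, 0 by DESeq2), although every SAP-24h rat had more Tlr2 than any SAP-6h rat, at 13.4 to 23.0 against 9.74 to 12.9 FPKM (log2 fold change 0.70 ± 0.48, adjusted p = 0.378). In DEX-24h against DEX-6h, 2 of 8 were called where 7.14% of genes were, and 3 of 8 passed without the fold minimum where 25.9% of genes did. Tlr2 fell by 1.58 on the log2 scale (adjusted p = 0.0221), Tlr3 rose by 1.12 (adjusted p = 0.0181) and Myd88 fell by 0.63 (adjusted p = 0.0138), from 46.0, 40.1 and 37.2 FPKM in DEX-6h to 28.0, 25.2 and 25.8 FPKM in DEX-24h.

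Each of these 3 differences lost its adjusted p below 0.05 without some single libraries. Tlr2 gave adjusted p values from 0.0544 to 0.0738 without DEX-24h replicate 1, 2 or 3 or DEX-6h replicate 1 or 2 (log2 fold changes from -1.67 to -1.38), Tlr3 gave 0.0618 to 0.0847 without DEX-24h replicate 2 or DEX-6h replicate 1 or 2 (0.92 to 1.05), and Myd88 gave 0.0610 without DEX-6h replicate 1 (-0.54). In Emo-24h against Emo-6h, 0 of 8 were called where 9.41% of genes were, with 3 members at an unadjusted p under 0.05 and 0 by DESeq2. Without the fold minimum 2 of 8 passed, where 34.1% of genes did. Myd88 fell by 0.73 (adjusted p = 0.00376), without overlap, and in all 11 alternatives its adjusted p stayed below 0.05. Cd14 fell by 0.97 (adjusted p = 0.0292), from 93.0, 45.3 and 85.0 FPKM to 37.0, 35.0 and 45.7 FPKM, and passed no longer without Emo-6h replicate 1 or 3 or Emo-24h replicate 1 or 2 (-0.91 to -0.77, adjusted p from 0.0854 to 0.130). The 2 red blood cell markers tested, Hbb and Alas2, were both called lower in Emo-24h than in Emo-6h. Their sums were 78.3 to 437 FPKM against 715 to 1461, and the part of blood content in the Myd88 and Cd14 differences was not tested.

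The rest of the pathway was read from 43 listed genes in 5 groups, of which 39 could be tested. In SAP-24h against Sham-24h, 8 of 39 were higher and 2 of 39 lower at an adjusted p below 0.05, where 12.4% of all genes passed in either direction, and 4 and 2 were so with the fold minimum, where 5.00% of all genes were called. The median log2 fold change of the 39 was 0.25, against -0.03 over all genes. In DEX-24h against SAP-24h, 1 was higher and 7 lower (7.71% of all genes), and 0 and 5 with the fold minimum (3.73%), with a median of -0.53. In Emo-24h against SAP-24h, 4 were higher and 4 lower (8.59%), and 3 and 3 with the fold minimum (3.19%), with a median of -0.15. With only the compared groups in the fit, 0 of the 9 that could be fitted among the 10 genes past the test in SAP-24h passed, 1 of 6 in DEX-24h, which was Lbp, and 0 of 7 in Emo-24h. With the fold minimum, SAP-6h against Sham-6h called 0 of the 39 (0.220% of all genes, 4 at an unadjusted p under 0.05, 0 by DESeq2). Emo-6h against SAP-6h called 0 (0.0251% of all genes, 6 at an unadjusted p under 0.05, 1 by DESeq2). DEX-6h against SAP-6h called 1, which was lower (0.515% of all genes).

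**Figure D4:**
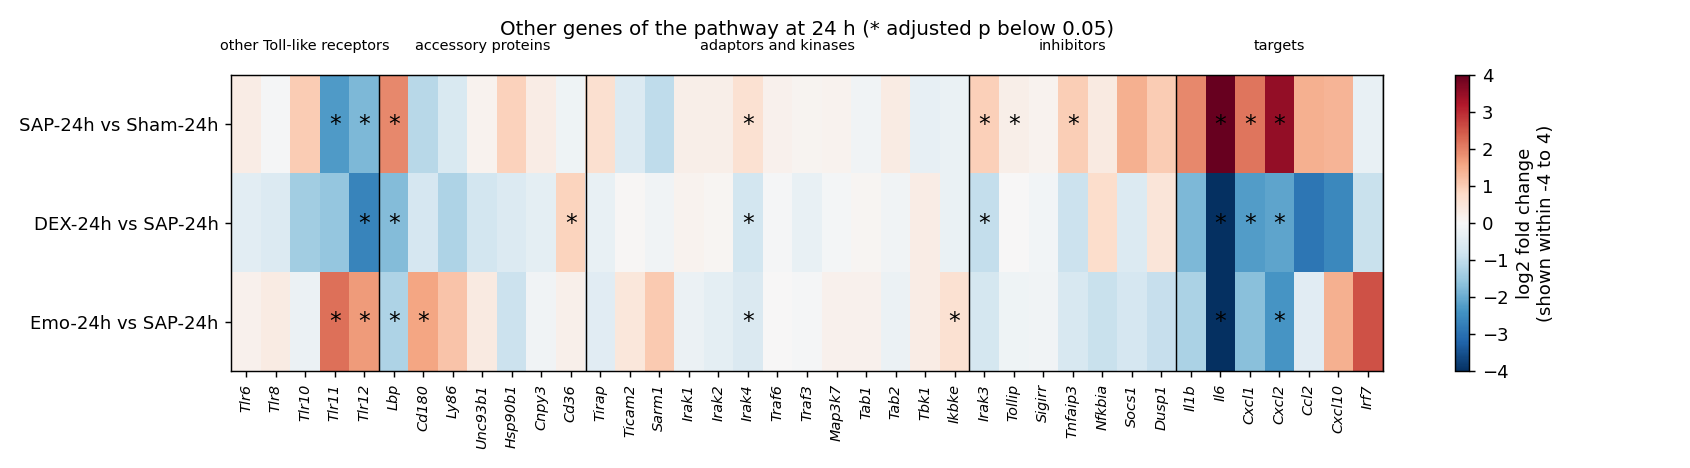
Log2 fold change (colour, limited to -4 to 4) of 39 other genes of the pathway (columns, by group) in 3 comparisons at 24 h (rows), with an asterisk where the adjusted p was below 0.05. Lbp is red in the SAP-24h row (1.93) and blue in the DEX-24h (-1.74) and Emo-24h (-1.24) rows, while Tlr11 and Tlr12 are blue in the SAP-24h row and red only in the Emo-24h row.

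Among accessory proteins, Lbp, the lipopolysaccharide-binding protein that loads CD14, was called in all 3 of these comparisons. It measured 16.8, 21.2 and 33.5 FPKM in Sham-24h, 76.3, 80.5 and 92.6 FPKM in SAP-24h, 20.7, 24.4 and 34.4 FPKM in DEX-24h and 35.8, 38.8 and 43.0 FPKM in Emo-24h, each from lowest to highest, and the SAP-24h rats overlapped none of the other 3 groups. The log2 fold change was 1.93 ± 0.25 for SAP-24h against Sham-24h (adjusted p = 0.000405), -1.74 ± 0.25 for DEX-24h against SAP-24h (adjusted p = 0.000215) and -1.24 ± 0.25 for Emo-24h against SAP-24h (adjusted p = 0.00580), and each kept an adjusted p below 0.05 whichever library was left out. With only the compared groups in the fit, Lbp no longer passed against Sham-24h (1.93, adjusted p = 0.0609) or for emodin (-1.24, adjusted p = 0.0671), and passed for dexamethasone. Cd180, a TLR4-like surface protein of B cells and macrophages, was higher in Emo-24h (3.14 to 7.08 FPKM) than in SAP-24h (1.44 to 1.86 FPKM), at 1.58 ± 0.49 (adjusted p = 0.0457), a call lost in 8 of 11 alternatives, among them without Emo-24h replicate 1 or 2 or SAP-24h replicate 1, 2 or 3 (1.41 to 1.62, adjusted p from 0.0835 to 0.144).

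Emo-24h against DEX-24h called 3 accessory proteins, all higher, of 7 tested, where 5.06% of all genes were called. These were Cd180 (2.24 ± 0.50, adjusted p = 0.00680), its partner Ly86 (2.39 ± 0.54, adjusted p = 0.00680) and Unc93b1, which escorts the endosomal receptors (1.10 ± 0.25, adjusted p = 0.00800). Ly86 measured 9.27 to 13.9 FPKM in Emo-24h and 1.55 to 2.47 FPKM in DEX-24h. B cell markers summed to 5.42 to 11.8 FPKM in DEX-24h, below the other 9 groups, where the lowest library had 20.01 FPKM, and to 36.8 to 64.9 FPKM in Emo-24h, and their part in these differences was not tested.

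The other Toll-like receptors were low. Tlr11 and Tlr12, rodent receptors for profilin of parasites, were the only 2 of 5 tested that were called in SAP-24h against Sham-24h, where 5.00% of all genes were. Tlr12 measured 0.34 to 0.78 FPKM in Sham-24h, 0.06 to 0.18 FPKM in SAP-24h, 0.02 FPKM in all 3 DEX-24h rats and 0.18 to 0.64 FPKM in Emo-24h. On the log2 scale Tlr12 changed by -1.81 ± 0.50 for SAP-24h against Sham-24h (adjusted p = 0.0212), -2.65 ± 0.62 for DEX-24h against SAP-24h (adjusted p = 0.0114) and 1.70 ± 0.50 for Emo-24h against SAP-24h (adjusted p = 0.0376). Tlr11 was 2.25 lower on the same scale in the first of these comparisons (-2.25 ± 0.66, adjusted p = 0.0283), a call lost in 7 of 12 alternatives, among them each of SAP-24h replicates 1, 2 and 3 and Sham-24h replicates 1 and 2 left out (-2.33 to -1.96, adjusted p from 0.0591 to 0.0958) and Con-24h as the reference (-1.12). The Tlr12 calls were lost without SAP-24h replicate 2 (-1.42, adjusted p = 0.0830) or Sham-24h replicate 1 (-1.33, adjusted p = 0.121) against Sham-24h, without SAP-24h replicate 1 (-2.26, adjusted p = 0.0539) for dexamethasone, and without Emo-24h replicate 1 or 2 or SAP-24h replicate 2 or 3 (1.32 to 1.78, adjusted p from 0.0666 to 0.134) for emodin.

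Of the adaptors and kinases, Irak4, the kinase nearest to MyD88, was the only 1 of 13 with an adjusted p below 0.05 in SAP-24h against Sham-24h (0.61 ± 0.15, adjusted p = 0.0143), no larger a share than the 12.4% of all genes, and it was lower in DEX-24h (-0.74 ± 0.15, adjusted p = 0.00494) and in Emo-24h (-0.57 ± 0.15, adjusted p = 0.0267) than in SAP-24h. Without SAP-24h replicate 1 these Irak4 values were 0.35 (adjusted p = 0.110) against Sham-24h and -0.32 (adjusted p = 0.156) for emodin, and leaving out Sham-24h replicate 1 or 2 or Emo-24h replicate 1 or 2 also ended them (adjusted p from 0.0519 to 0.0865). Of 7 inhibitors 3, Irak3, Tnfaip3 and Tollip, were higher in SAP-24h than in Sham-24h by 0.95, 0.98 and 0.24 on the log2 scale (adjusted p = 0.0343, 0.0286 and 0.0390). Irak3 was at 0.39 (adjusted p = 0.340) without SAP-24h replicate 3, 0.98 (adjusted p = 0.0827) without Sham-24h replicate 1 and 0.78 (adjusted p = 0.151) without Sham-24h replicate 2. Tnfaip3 did not pass without SAP-24h replicate 1 or 3 or Sham-24h replicate 2 or 3 (0.80 to 1.01, adjusted p from 0.0557 to 0.119), nor Tollip without any 1 SAP-24h replicate or Sham-24h replicate 2 or 3 (0.22 to 0.26, adjusted p from 0.0512 to 0.103) or with no filter on low counts (0.27, adjusted p = 0.0617), and neither passed with Con-24h as the reference (0.57, adjusted p = 0.154, and 0.10, adjusted p = 0.384). Nfkbia, which holds NF-kB in the cytoplasm and is known to be raised by glucocorticoids, was lower in Emo-24h (132 to 343 FPKM) than in DEX-24h (597 to 648 FPKM), at -1.61 ± 0.35 (adjusted p = 0.00544), a call kept whichever library was left out. Dusp1, a phosphatase that switches off MAP kinases and is likewise known to be raised by glucocorticoids, was lower there too, at 104 to 202 FPKM in Emo-24h against 335 to 419 FPKM in DEX-24h (-1.39 ± 0.38, adjusted p = 0.0241), a call lost without DEX-24h replicate 1 or 3 or Emo-24h replicate 1 or 2 (-1.44 to -1.20, adjusted p from 0.0565 to 0.125).

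Of 7 target genes tested, 3 were higher in SAP-24h than in Sham-24h, namely Il6 and the neutrophil chemokines Cxcl1 and Cxcl2, where 5.00% of all genes were called. With only the compared groups in the fit Cxcl2 (adjusted p = 0.101) and Cxcl1 (adjusted p = 0.233) did not pass. Cxcl2 measured 0.51 to 0.74 FPKM in Sham-24h and 1.13, 8.19 and 10.8 FPKM in SAP-24h, at 3.52 ± 0.64 on the log2 scale (adjusted p = 0.00203). Cxcl1 measured 10.9 to 19.97 FPKM in Sham-24h and 6.75, 37.2 and 119 FPKM in SAP-24h, so that the groups overlapped (2.15 ± 0.60, adjusted p = 0.0229). Il6 was at 0.06 to 0.11 FPKM in Sham-24h and at 0.08, 0.63 and 11.04 FPKM in SAP-24h, the highest being replicate 1, and rested on few reads elsewhere. Its fitted log2 fold change of 5.71 ± 1.45 (adjusted p = 0.0141) fell to 2.13 (adjusted p = 0.328) without that library and stayed at 5.53 (adjusted p = 0.0620) without Sham-24h replicate 2. Cxcl1 was at 0.75 (adjusted p = 0.392) without SAP-24h replicate 1, 2.02 (0.0916 as adjusted p) without Sham-24h replicate 2 and 2.05 (0.0663 as adjusted p) without Sham-24h replicate 3. The same 3 genes were lower in DEX-24h than in SAP-24h (adjusted p = 0.0116 for Il6, 0.0250 for Cxcl1 and 0.0316 for Cxcl2), and Il6 and Cxcl2 were lower in Emo-24h (adjusted p = 0.0208 and 0.0210). Each of these 5 drug values lost its call without DEX-24h or Emo-24h replicate 1, without replicate 2 of the same drug group and without SAP-24h replicate 1, where the adjusted p lay between 0.0517 and 0.399. Cxcl2 lost it also without SAP-24h replicate 3 (adjusted p = 0.119 with dexamethasone and 0.0684 with emodin), and Il6 without Emo-24h replicate 3 (adjusted p = 0.0590).

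The remaining calls among the pathway genes lay between the drugs and between the times. In Emo-24h against DEX-24h, Tlr11 (3.75 ± 0.74, adjusted p = 0.00278) and Tlr12 (4.36 ± 0.61, adjusted p = 0.000160) were higher with emodin and were called in all 11 alternatives, although both rested on few reads in DEX-24h, at 0.02 to 0.04 FPKM. Tlr11 was also higher in Emo-24h than in SAP-24h (2.19 ± 0.66, adjusted p = 0.0419), a call that leaving out Emo-24h replicate 1 or 2 or any 1 SAP-24h replicate ended (1.46 to 2.27, adjusted p from 0.0778 to 0.214). The 1 gene called in DEX-6h against SAP-6h was Tlr12 (-2.08 ± 0.50, adjusted p = 0.0448), which passed no longer without DEX-6h replicate 1 or 3 or any 1 SAP-6h replicate (-2.31 to -1.76, adjusted p from 0.0652 to 0.246). In Emo-6h against DEX-6h, Cd180 (2.39 ± 0.51, adjusted p = 0.0131) and the interferon-induced chemokine Cxcl10 (6.94 ± 1.92, adjusted p = 0.0497) were higher with emodin. Cxcl10 measured 1.00, 1.95 and 268 FPKM in Emo-6h, and without replicate 3 of that group its log2 fold change was 0.98 (adjusted p = 0.814) and that of Cd180 1.43 (adjusted p = 0.115). Leaving out any 1 DEX-6h replicate also ended both (adjusted p from 0.0503 to 0.194).

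Cd36, a scavenger receptor that assists TLR2, was higher at 24 h than at 6 h with either drug, at 15.5 to 21.1 against 5.97 to 7.37 FPKM with dexamethasone (1.48 ± 0.27, adjusted p = 0.000665) and at 11.2 to 12.6 against 3.88 to 4.58 FPKM with emodin (1.41 ± 0.27, adjusted p = 0.000530), and both calls held in all 11 alternatives. Tlr12 was lower in DEX-24h than in DEX-6h (-2.42 ± 0.63, adjusted p = 0.00733), again in all 11. Dusp1 was lower in Emo-24h than in Emo-6h (-1.03 ± 0.38, adjusted p = 0.0393), but not past the test without replicate 1 or 2 of Emo-24h or 1 or 3 of Emo-6h (-1.03 to -0.84, adjusted p from 0.0807 to 0.152). In SAP-24h against SAP-6h, Cxcl1 (3.59 ± 0.65, adjusted p = 0.00425) and Cxcl2 (2.99 ± 0.63, adjusted p = 0.00865) were higher and passed whichever library was left out, but not with only the compared groups in the fit (adjusted p = 0.124 and 0.111). Il6 was also called higher (adjusted p = 0.0180), and Tlr11 (-2.29, adjusted p = 0.0404) and Tlr12 (-1.85, adjusted p = 0.0320) lower, each lost without several single libraries (adjusted p from 0.0612 to 0.238). The emodin effect differed between 24 h and 6 h for Il6 (adjusted p = 0.0326) and Cxcl1 (-3.18 ± 0.85, adjusted p = 0.0411), and without SAP-24h replicate 1 neither passed (adjusted p = 0.108 and 0.134), nor without some other single libraries (adjusted p from 0.0511 to 0.166).

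Members were also compared by how their levels ran over the 30 libraries, as Pearson r of log2(FPKM + 1). These r values are descriptions over libraries that share groups, times and RNA from mixed cells. Cd14 and Myd88 ran together most closely (r = 0.834), followed by Tlr4 and Tlr7 (0.724) and Tlr2 and Myd88 (0.706). Tlr3 ran against Cd14 (r = -0.624) and against Myd88 (-0.473). Tlr2 and Tlr4, the 2 main surface receptors for bacterial products, were unrelated (-0.04).

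**Figure D5:**
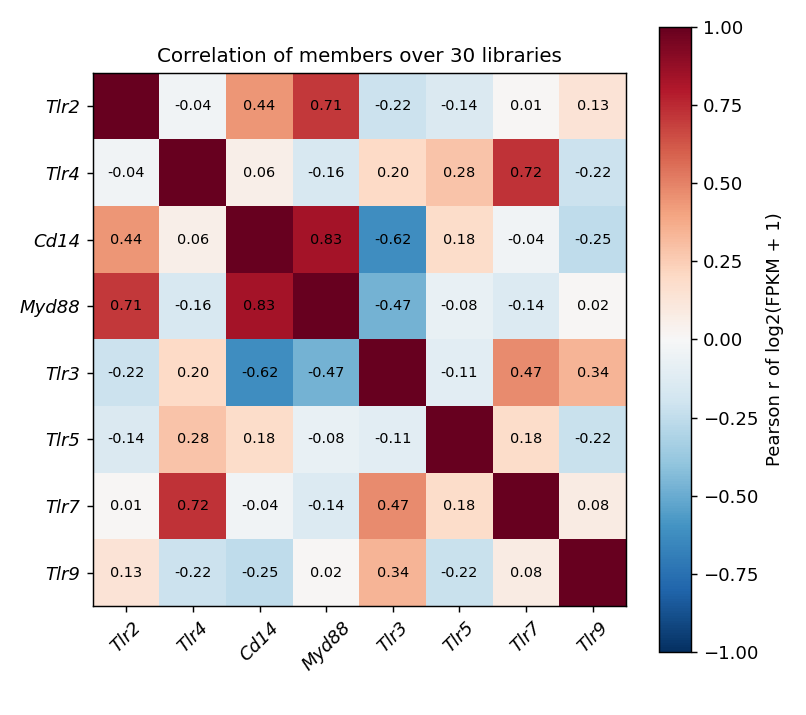
Pearson r of log2(FPKM + 1) between each pair of the 8 members over 30 libraries (colour and printed value). Cd14, Myd88 and Tlr2 form one block of positive values (0.44 to 0.83), Tlr4 and Tlr7 a pair (0.72), and Tlr3 is negative with Cd14 (-0.62) and Myd88 (-0.47).

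The genes most like each member were taken from 12362 genes with a mean of at least 1 FPKM. For Tlr2, Mefv (r = 0.923) and Nfe2 (0.922) were among the genes most like it. Cd14 was most like Nfil3 (0.926), the metallothionein Mt2A (0.918) and Sema6b (0.918). Myd88 was most like Arid5a (0.959), Stat3 (0.954), the transcription factor downstream of interleukin-6, and Tnfrsf1a (0.952), the receptor of tumour necrosis factor. Tlr9 was most like Gpr183 (0.865), Dnase1l3 (0.839) and Cxcr3 (0.814), and its r with the B cell sum was 0.668. Tlr3 was most like Mppe1 (0.847), Erap1 (0.839) and Samd9l (0.745). Tlr4 was most like Ipo7 (0.915), Dhx15 (0.875) and Pafah1b1 (0.871). Tlr7 was most like Papolg (0.854), Morc3 (0.848) and Usp25 (0.841), and Tlr5 was most like Slc6a6 (0.859), Edem1 (0.821) and Ppm1a (0.795).

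Against the marker sums, Tlr2 ran with the neutrophil list (r = 0.833), Myd88 less so (0.506) and Cd14 less again (0.430). With the macrophage and monocyte sum, which lay close to the level of Lyz2 alone, the r was 0.203 for Tlr2, -0.03 for Cd14 and -0.08 for Myd88.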

How the data were processed

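Poly(A) RNA of lung tissue was sequenced as directional paired-end libraries. Per the labels and the study's methods, the authors trimmed the reads, mapped them with TopHat2 to the Ensembl rat genome (rat_ensembl_v6), kept uniquely mapped reads and deposited, per gene, read counts that were not normalized and FPKM values. The build of the files is not that of the promoter sequences (GRCr8), and no coordinates were mixed. The read counts were tested with edgeR 4.0.16 (TMM factors, filterByExpr with a minimum count of 10, quasi-likelihood F test, R 4.3.3) in 1 model of 10 groups with 20 residual degrees of freedom. A gene was called at a Benjamini-Hochberg adjusted p below 0.05 and at least 2-fold, the fold minimum being the study's. FPKM served for levels and, as log2(FPKM + 1), for r. Where a symbol had 2 rows, the row with most reads was used. DESeq2 1.42.0, RLE factors, no filter, the compared groups alone, a replicate block, Con as the reference and leaving out each library were alternatives. Counts were also simulated for SAP-24h against Sham-24h over 15772 genes. An adjusted p below 0.05 (edgeR) was reached by 81 of 100 genes changed 2-fold and 98 of 100 changed 4-fold. With the fold minimum, 54 of 100 and 98 of 100 were called, as were 11 unchanged genes. The changed genes had more reads on average than Tlr5 or Tlr9, and each gene had the same spread in all groups. Recovery was therefore not measured for members with so few reads or for groups of unequal spread.

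Named were the 10 members, for each member the 3 genes with the highest r (1 of them is not reported here), and genes of the pathway lists that were called in a comparison described. Other genes that passed only without the fold minimum, or that mark a library, were named after their values were seen. The members and lists were chosen with earlier results of these data known. The libraries of a group were separate rats as far as the labels tell, and no pair within a group agreed within sampling noise (chi-square per degree of freedom at least 37.4). The p-values measure the spread between these rats. The labels give replicate numbers 1 to 3 in each group without saying what they share. Deviations from the group means correlated in all 3 same-numbered pairs only for DEX-24h and DEX-6h (r = 0.212, 0.221 and 0.230), where the blocked fit changed no call of a member.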

Additional observations from a re-analysis of the deposited data

Results flagged for a closer look

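The emodin effect on Myd88 differed between the times by the test of the difference itself. Against SAP rats of the same time, the 24 h effect minus the 6 h effect was -0.94 on the log2 scale (edgeR, adjusted p = 0.0440), with all 3 Emo-24h rats below all 3 SAP-24h rats and overlapping groups at 6 h. In 9 of 17 alternatives the adjusted p was no longer below 0.05, and the differences ranged from -1.10 to -0.66 over all 17. The smallest difference, -0.66 (adjusted p = 0.0917), was that without SAP-24h replicate 1.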

How the results depend on the processing

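Of the 8 members, 3 were called in SAP-24h against Sham-24h, 0 when only the compared groups were fitted, and between 1 and 3 when 1 library was left out. For Emo-24h against SAP-24h the 2 calls became 1 with RLE size factors, 1 with no filter on low counts, 0 with the compared groups alone and 0 to 2 with 1 library left out. The call in Emo-6h against DEX-6h became 0 with the compared groups alone and 0 to 1 with 1 library left out. That in Emo-24h against DEX-24h was kept with the compared groups alone and ranged from 0 to 1 with 1 library left out. The 2 calls of DEX-24h against DEX-6h ranged from 0 to 3 with 1 library left out, and the 0 of Con-24h against Sham-24h from 0 to 1. Without the fold minimum, 2 members passed instead of 1 in DEX-24h against SAP-24h, 2 instead of 0 in Emo-24h against Emo-6h (0 to 2 with 1 library left out) and 1 instead of 0 in the emodin effect at 24 h minus 6 h (0 to 2 with 1 library left out). DESeq2 called 1 instead of 0 in the tests of whether the dexamethasone and the emodin effects differed between times. Of the 39 pathway genes, DESeq2 called 10 instead of 6 in SAP-24h against Sham-24h. It called 6 instead of 2 for the emodin effect at 24 h minus 6 h. For the SAP and the dexamethasone effects at 24 h minus 6 h it called 2 instead of 0 each. Fewer rats informed the spread where the compared groups were fitted alone, and the cause was not tested for these or for the other changes.

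The replicate block changed 0 of 18 counts of members called, and of the member values it moved only the Myd88 emodin effect at 24 h minus 6 h to an adjusted p of 0.0526 and Tlr4 in Con-24h against Sham-24h to 0.0455. Only 15 of 45 same-numbered pairs had deviations that correlated above 0.1 (range -0.363 to 0.359). Directions turned for values near 0. With 1 library left out, Myd88 in Emo-24h against DEX-24h ranged from -0.083 to 0.065, Tlr4 in SAP-24h against Sham-24h from -0.28 to 0.25, and Tlr4 in DEX-24h against SAP-24h from -0.21 to 0.32. The r of Tlr5 with Slc6a6, 0.859, was 0.744 as Spearman's rho. Tlr9 with 5 to 96 reads and Tlr5 with 18 to 231 reads per library had SEs of 0.59 and 0.41 in SAP-24h against Sham-24h, against 0.18 for Myd88, 0.34 for Cd14, 0.41 for Tlr7 and 0.49 for Tlr2, so that Tlr9, the member with fewest reads, was measured least precisely there.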
